A study of Mus musculus with 12 samples.

Results

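FoxOi, the FoxO1 inhibitor AS1842856, was compared with its solvent DMSO in Min6 cells, an insulinoma-derived mouse beta cell line, by sequencing of stranded mRNA libraries. The members of this comparison are all libraries labelled DMSO or FoxOi, 3 of each, so 6 of the 12 libraries of the study. The DMSO cells received solvent only and the FoxOi cells 1 µM of the inhibitor, each for 48 h, and the labels name no genetic change in either group. The remaining 6 libraries (loperamide, alone or with FoxOi) were not compared here. They entered only the filter on low counts, the scaling and the estimate of the spread between libraries. The 6 libraries held 14358011 to 19499216 counts. The labels do not say whether libraries of a group came from separate cultures, so every p-value below measures the spread between these libraries, which may be technical. In bulk RNA, fewer cells of a type and less RNA per cell cannot be told apart.

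FoxO proteins are forkhead transcription factors that insulin signalling restrains: the kinase AKT phosphorylates them, and they then leave the nucleus. In the nucleus they bind forkhead motifs and are known for targets in cell cycle arrest, oxidative defence, autophagy and gluconeogenesis. In beta cells FoxO1 is known for protecting cell identity under metabolic stress. The compound acts on the protein, so the Foxo1 transcript is no check of whether it worked.

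Promoters were searched for letters bound by forkhead factors and by the factor families whose genes or targets changed in these data. The windows ran from 250 bases before to 50 after the annotated start of 10260 tested protein-coding genes (RefSeq, GRCm38.p6), and both strands were read. The forkhead letters GTAAACA stood in 2.34% of all windows, in 2.17% of windows of genes called higher with FoxOi and in 2.72% of those called lower. The E-box CACGTG, the core bound by basic helix-loop-helix factors such as the MiT/TFE family, MYC and BHLHE40, stood in 10.2% of all windows, in 13.9% of those of genes called higher and in 7.84% of those called lower. The AP-1 letters TGANTCA stood in 4.70% of all windows, in 5.93% for genes called higher and 4.22% for genes called lower, and in 8.82% for genes raised and 6.52% for genes lowered beyond 1.5-fold. TGATGNAA, read by ATF4 with C/EBP partners, stood in 2.23% of all windows and in 3.03% and 1.98% for genes called higher and lower. None of these 4 sets of letters contains another in full. The median GC content of the windows was 61.7% for genes called higher and 60.7% for genes called lower. The share of windows with forkhead letters lay near that of all windows in both groups, and E-box and AP-1 letters stood in a larger share of windows of genes called higher than of genes called lower, with AP-1 letters above the share of all windows on both sides beyond 1.5-fold; these shares are descriptions without a test, and a match is not evidence of binding. The 250 bases before the start are shown for 3 named genes that hold the forkhead letters in these bases. For each other motif they are shown for the gene with the largest change. This choice was made among 202 of the 258 named genes, and the rest had no window or were left out of it. Capitals mark the motif letters.
Slc7a11 (GRCm38.p6, chr3:50443614-50443863, minus strand): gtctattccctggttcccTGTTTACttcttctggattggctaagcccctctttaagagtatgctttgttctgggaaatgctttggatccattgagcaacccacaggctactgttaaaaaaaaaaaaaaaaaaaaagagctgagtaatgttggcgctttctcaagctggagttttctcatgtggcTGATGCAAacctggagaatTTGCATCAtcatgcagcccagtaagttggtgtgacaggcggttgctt
Rsad2 (GRCm38.p6, chr12:26456453-26456702, minus strand): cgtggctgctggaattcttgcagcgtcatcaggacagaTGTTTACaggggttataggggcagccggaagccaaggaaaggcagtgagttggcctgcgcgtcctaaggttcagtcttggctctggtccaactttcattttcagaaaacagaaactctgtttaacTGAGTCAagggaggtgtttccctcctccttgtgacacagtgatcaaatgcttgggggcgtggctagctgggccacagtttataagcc
Cry1 (GRCm38.p6, chr10:85185055-85185304, minus strand): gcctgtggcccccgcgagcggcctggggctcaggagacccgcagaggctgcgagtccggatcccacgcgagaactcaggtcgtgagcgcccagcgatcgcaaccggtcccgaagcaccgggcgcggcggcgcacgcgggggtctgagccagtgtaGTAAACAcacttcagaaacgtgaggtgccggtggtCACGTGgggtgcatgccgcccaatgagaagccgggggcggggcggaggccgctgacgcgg
Pla2g2e (GRCm38.p6, chr4:138877692-138877941, plus strand): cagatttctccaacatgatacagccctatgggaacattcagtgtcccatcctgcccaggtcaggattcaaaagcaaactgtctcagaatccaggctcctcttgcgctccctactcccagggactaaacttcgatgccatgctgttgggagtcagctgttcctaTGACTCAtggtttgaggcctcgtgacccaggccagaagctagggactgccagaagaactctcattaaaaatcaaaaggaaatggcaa
Car6 (GRCm38.p6, chr4:150201136-150201385, minus strand): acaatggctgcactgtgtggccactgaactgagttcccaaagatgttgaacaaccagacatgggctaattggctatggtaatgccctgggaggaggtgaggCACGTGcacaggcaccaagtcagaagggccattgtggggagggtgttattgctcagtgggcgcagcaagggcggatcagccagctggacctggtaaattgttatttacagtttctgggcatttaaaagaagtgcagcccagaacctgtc
Nts (GRCm38.p6, chr10:102490419-102490668, minus strand): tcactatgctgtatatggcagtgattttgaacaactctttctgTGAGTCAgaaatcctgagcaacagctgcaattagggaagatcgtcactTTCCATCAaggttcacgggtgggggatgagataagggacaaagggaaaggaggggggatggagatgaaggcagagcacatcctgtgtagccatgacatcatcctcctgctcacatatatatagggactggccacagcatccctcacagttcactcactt
Slc7a11, the cystine transporter, holds a reversed forkhead match and a forward and a reversed ATF4 match, Rsad2, an antiviral enzyme, a reversed forkhead and an AP-1 match, and Cry1, a clock repressor, a forkhead match and an E-box. Pla2g2e holds an AP-1 match, Car6 an E-box, and Nts an AP-1 match and a reversed ATF4 match. All 6 genes rose with FoxOi, Slc7a11 from 10.5 ± 3.26 to 51.1 ± 7.22 CPM, Rsad2 from 3.23 ± 0.261 to 13.2 ± 5.17 CPM and Cry1 from 16.8 ± 1.03 to 30.9 ± 3.41 CPM (means with SD, n = 3), and all are described below.

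FoxOi changed much of the transcriptome. Of 16808 genes tested with edgeR's quasi-likelihood test, 6881 (40.9%) passed a Benjamini-Hochberg adjusted p of 0.05, 3476 higher (20.7%) and 3405 lower (20.3%), and "called", "rose" and "fell" below refer to this test. Counts for gene lists and families below should be read against these shares of all tested genes. Most called changes were small: 2989 were under 1.5-fold, 2032 from 1.5-fold to 2-fold, 1393 from 2-fold to 4-fold, 306 from 4-fold to 8-fold and 161 larger, of which 120 rose and 41 fell. Calls of at least 2-fold were 5.66% of tested genes on the higher and 5.4% on the lower side. In 48.4% of the tested genes the 3 FoxOi libraries did not overlap the 3 DMSO libraries. A test for changes beyond 1.5-fold passed 1840 genes (10.9%), 953 higher (5.67%) and 887 lower (5.28%). For 2911 genes (17.3%) the 95% interval of the change lay within 1.3-fold in either direction, which bounds the change for those genes, and 7054 genes were neither called nor bounded in this way. With the replicate number as a block, in what is called the blocked fit below, 4563 genes were bounded. Libraries of the same number, compared in pairs, changed in the same direction in all 3 numbers for 6858 of the 6881 called genes. Since these genes were called from the same libraries, this agreement adds no support to the calls. The first principal component of the 6 libraries held 72.1% of the variance and separated FoxOi from DMSO. Levels below are CPM, counts scaled to a common library size after TMM scaling, given for replicates 1, 2 and 3 in that order, and ± marks the SD of 3 libraries for a level and the SE for a log2 fold change. Gene positions are GRCm38 coordinates as the deposited table gives them.

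**Figure D1:**
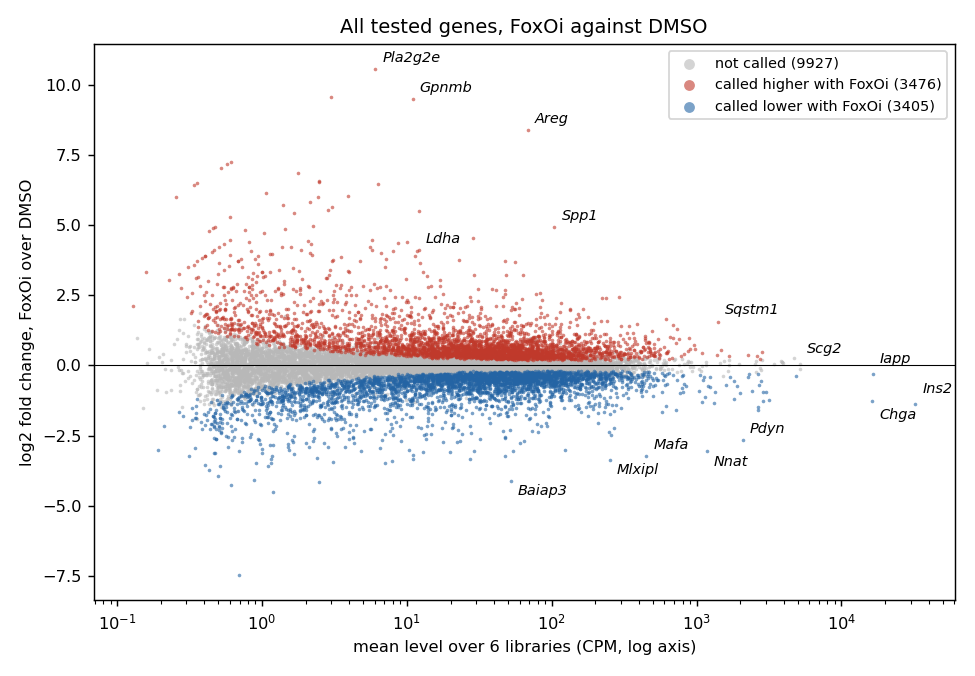
Change with FoxOi (log2 fold change over DMSO, vertical) against the mean level over the 6 libraries (CPM, log axis) for each tested gene; red points were called higher (3476), blue lower (3405), grey not called (9927). The most abundant transcripts, such as Ins2 and Chga, lie below 0, and the largest rises belong to genes near absent from DMSO libraries, such as Pla2g2e and Gpnmb.

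The libraries carried the marker profile of a beta cell line. The 12 beta cell markers (Ins1, Ins2, Iapp, Pdx1, Nkx6-1, Mafa, Slc30a8, G6pc2, Abcc8, Kcnj11, Ucn3 and Slc2a2) summed to 59560 to 79340 CPM of the plain library total in DMSO and to 35740 to 40780 with FoxOi, and 10 of them fell. Of these calls, that of Slc2a2 was lost when DMSO replicate 1 or 2 or FoxOi replicate 1 or 3 was left out (adjusted p = 0.0293 with all libraries, 0.0671, 0.0889, 0.0918 and 0.107 without them), and Iapp is given below. Slc30a8, the granule zinc transporter, was at -0.29 ± 0.13 (adjusted p = 0.0965) and was called without DMSO replicate 1 (0.0159) and in the blocked fit (0.000187). The glucose transporter gene Slc2a2 was low in all libraries, at a mean of 1.90 ± 0.373 CPM in DMSO, against 22.9 ± 1.98 CPM for Slc2a1. Alpha cell markers summed to 2711 to 3687 and 1989 to 2616 CPM, most of it Gcg and Ttr. Ttr fell by 1.21 ± 0.24, while Gcg was at 0.59 ± 0.19 (adjusted p = 0.027). Its call ended when DMSO replicate 1 (0.0652) or 3 (0.124) or FoxOi replicate 1 (0.0982) or 2 (0.103) was left out. Of the macrophage and leukocyte list of 17 genes, 7 had 10 or fewer counts and C1qb, Tyrobp and Cx3cr1 had 0; its sum was 46.5 to 68.2 CPM in DMSO and 43.7 to 52.9 with FoxOi. Of its 5 tested genes Cd68, a lysosomal membrane protein, rose from 2.08 ± 0.596 to 17.8 ± 0.169 CPM, and C1qa, a complement subunit that made up much of the DMSO sum, fell from 43.0 ± 10.3 to 13.2 ± 2.93 CPM. Of 12 acinar markers 4 were at 0, among them Ptf1a, and the sum was 90.4 to 109.8 and 42.2 to 52.6 CPM. In all, 9 of them had 10 or fewer counts, and Bhlha15, which fell from 103 to 46.1 CPM, made up most of the sum. Endothelial markers summed to at most 3.57 CPM, with Kdr and Cdh5 at 0. Fibroblast and stellate cell markers summed to 44.5 to 67.7 and 25.1 to 29.7 CPM, with Col3a1 and Lum at 0, and Col6a3, Col1a1 and Col1a2, the 3 tested genes, fell. The call of Col1a1 (adjusted p = 0.019) was lost without DMSO replicate 1 (0.0558), DMSO replicate 2 (0.0787) or FoxOi replicate 2 (0.0603), and that of Col1a2 (0.0109) without FoxOi replicate 2 (0.0517). Ductal markers summed to 243.8 to 318.3 and 317.4 to 375.6 CPM, and markers of delta, PP and epsilon cells to 60.3 to 97.6 and 77.1 to 164.5 CPM. The ductal members went both ways: Spp1, given below, rose and the keratin gene Krt7 fell from 294 to 139 CPM. The ductal markers Cftr, Krt19, Sox9 and Tff2 had 10 or fewer counts. Markers of neurons, many of which endocrine cells share, summed to 1316 to 1410 in DMSO and 1031 to 1098 with FoxOi. What part these markers have in the results below was not tested.

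The FoxO genes themselves moved little. In the authors' deposited FPKM, which scale for length, the DMSO means were 5.02 for Foxo3, 4.21 for Foxo6, 4.19 for Foxo4 and 4.13 for Foxo1, so no member stood apart from the rest. Foxo1 stood at 31.6, 35.6 and 40.6 CPM in DMSO and 26.4, 23.8 and 26.7 CPM with FoxOi (ENSMUSG00000044167, chromosome 3, 52268336 to 52353221). All FoxOi libraries lay below all DMSO libraries, and Foxo1 fell by 0.48 ± 0.11 on the log2 scale (SE; edgeR adjusted p = 0.0022). Foxo3 was at -0.04 ± 0.09 (95% interval -0.23 to 0.16), Foxo4 at -0.10 ± 0.11 (-0.34 to 0.14) and Foxo6 at -0.14 ± 0.15 (-0.47 to 0.19), and none of these was called.

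Genes known from other tissues as FoxO targets did not move as one block. Of 26 such genes 21 were tested, 6 rose and 8 fell, with a list median of -0.14 on the log2 scale against 0.01 over all tested genes. The fallers included growth restraint and insulin sensitivity genes: the sestrins Sesn1 (-1.03 ± 0.10) and Sesn3 (-1.46 ± 0.25), the cyclin G2 gene Ccng2 (-0.68 ± 0.14), the CDK inhibitor gene Cdkn1b (-0.38 ± 0.10), the ubiquitin ligase gene Fbxo32 (-0.68 ± 0.15), the insulin receptor substrate gene Irs2 (-0.57 ± 0.12) and the death ligand gene Tnfsf10 (-2.01 ± 0.25). The risers included Klf6 (2.03 ± 0.15), the catalase gene Cat (2.57 ± 0.37), the repressor gene Bcl6 (1.91 ± 0.23), the growth arrest gene Gadd45a (0.69 ± 0.11) and the autophagy genes Gabarapl1 (0.50 ± 0.10) and Bnip3 (0.63 ± 0.12); the values are log2 fold changes with SE. Sod2, a classical target, was at -0.13 ± 0.08 with an interval of -0.31 to 0.05, and Bcl2l11 at -0.14 ± 0.11 with -0.38 to 0.10, neither of them called. Pdk4 had 0 counts, and G6pc, Pck1 and Igfbp1 had 3 or fewer counts over either group, so the gluconeogenic targets could not be tested in these cells. In the insulin and IGF signalling list 3 of 24 genes rose and 6 fell (6 and 10 in the blocked fit, and 5 higher without DMSO replicate 3). There 37.5% of the genes were called, near the 40.9% of all tested genes. Insr (-0.12 ± 0.20) was not called.

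The largest falls included a glucose-responsive transcription factor, calcium and vesicle proteins and an ER disposal factor. Mlxipl, which encodes the glucose-responsive transcription factor ChREBP (ENSMUSG00000005373, chromosome 5, 135089890 to 135138382), stood at 529.9, 483 and 361 CPM in DMSO and 55.5, 35.9 and 41.2 CPM with FoxOi. The highest FoxOi library was far below the lowest DMSO library, and Mlxipl fell by 3.37 ± 0.21 (log2, SE; edgeR adjusted p = 1.31e-07). Scgn, which encodes the calcium sensor secretagogin (ENSMUSG00000021337, chromosome 13, 23953456 to 23991214), went from 92.6, 85.4 and 78.8 to 10.3, 8.46 and 8.56 CPM. These groups were tight and far apart, and Scgn fell by 3.24 ± 0.15 (adjusted p = 1.82e-09). Baiap3, a relative of the vesicle priming protein Munc13, fell from a mean of 98.5 ± 25.7 to 5.68 ± 1.79 CPM (SD, n = 3), the largest fall by the naming rule; its last exons overlap those of Tsr3 on the opposite strand. Akr1c19, an aldo-keto reductase gene, fell from 49.9 ± 2.67 to 4.93 ± 0.702 CPM and Derl3, which acts in the disposal of misfolded ER proteins, from 20.02 ± 3.18 to 1.99 ± 0.23 CPM. The homeobox gene Barhl1 fell by 3.10 ± 0.21, the serotonin receptor gene Htr1d by 3.10 ± 0.33, the cadherin gene Cdh23 by 3.47 ± 0.23, the myosin gene Myo16 by 3.41 ± 0.16 and Tmem121b by 3.20 ± 0.15.

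**Figure D2:**
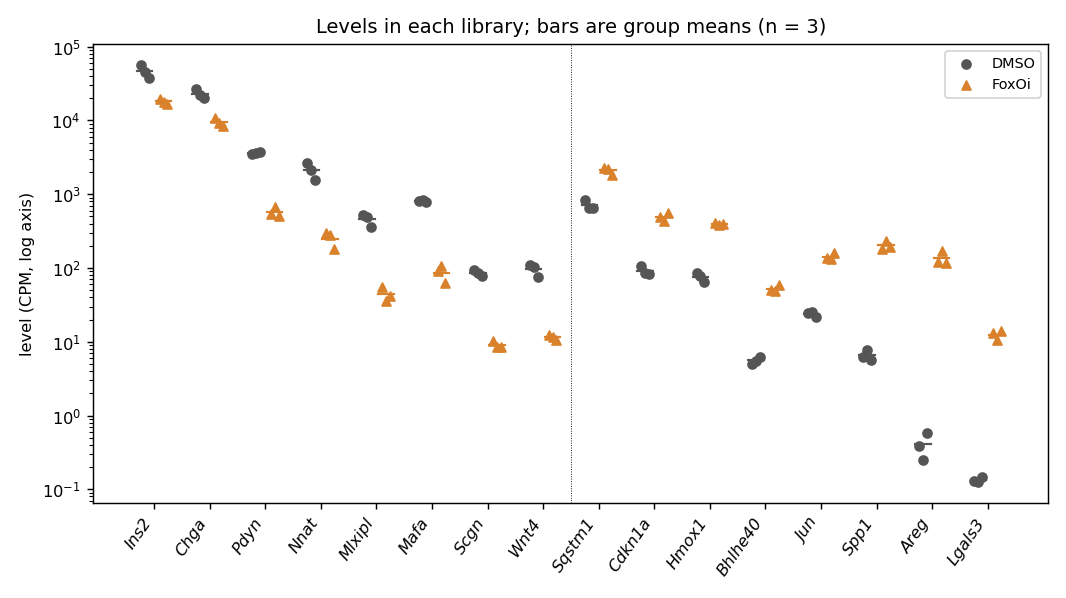
Level of 16 genes in each library (CPM, log axis); grey circles are DMSO libraries, orange triangles FoxOi libraries, and short bars the group means (n = 3 each). The 8 genes left of the dotted line fell and the 8 right of it rose, and in none of them do the groups overlap. These genes were picked with their values known, so their separation is no result of its own.

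Losses of transcripts were more concentrated in single genes than gains. Summed over all tested genes, means fell by 190080 CPM and rose by 116550 CPM. After TMM scaling the CPM summed to 1063900 in DMSO and 990400 with FoxOi, so losses and gains need not balance. The excess of losses follows from this scaling and is no measure of RNA lost per cell. The 10 genes with the largest losses took 32.8% of the losses, and the 10 with the largest gains 6.41% of the gains; for the largest 100 the shares were 53.9% and 25.6%. Ins1 and Ins2 together made up 16.3% of the losses, and fell from 3.85 to 5.63% of all counts in DMSO libraries to 1.79 to 2.14% with FoxOi. Among the 70 genes with at least 1000 CPM, 9 rose and 35 fell, and their median change was -0.32.

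Ins2 (ENSMUSG00000000215, chromosome 7, 142678656 to 142743381) had 56661, 45732 and 37473 CPM in DMSO and 19759, 18032 and 16606 CPM with FoxOi. The same library number was highest, and the same lowest, in both groups, which did not overlap. Chga, the granule protein chromogranin A (ENSMUSG00000021194, chromosome 12, 102554969 to 102565028), had 27055, 21866 and 19864 CPM and 10824, 9276 and 8496 CPM. The library numbers had the same order as for Ins2 in both groups. Pdyn, which encodes the opioid precursor prodynorphin (ENSMUSG00000027400, chromosome 2, 129686565 to 129699844), had 3517, 3586 and 3687 CPM in DMSO and 533, 663 and 509.9 CPM with FoxOi and fell by 2.66 ± 0.14 (adjusted p = 4.98e-09). Nnat, the imprinted gene of neuronatin, which assists preproinsulin processing at the ER (ENSMUSG00000067786, chromosome 2, 157560078 to 157562522), had 2608, 2136 and 1567 and 293, 279.7 and 179 CPM and fell by 3.07 ± 0.24 (adjusted p = 1.43e-06). Both genes fell further than either insulin gene, for which the changes were -1.36 ± 0.13 (Ins2) and -1.49 ± 0.14 (Ins1). Pappa2, a protease that frees IGFs from their binding proteins, fell by 1.57 ± 0.27, Pcsk2, a prohormone convertase, by 1.26 ± 0.09, Chgb by 1.24 ± 0.08, and Gnas, which encodes the G protein subunit Gs alpha and overlaps antisense transcripts, by 0.94 ± 0.09. Iapp, the amyloid peptide co-secreted with insulin, went from 18254 ± 1453 to 14665 ± 955 CPM, a change of -0.32 ± 0.09 (adjusted p = 0.0138). That call was lost without FoxOi replicate 2 (adjusted p = 0.0603).

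**Figure D3:**
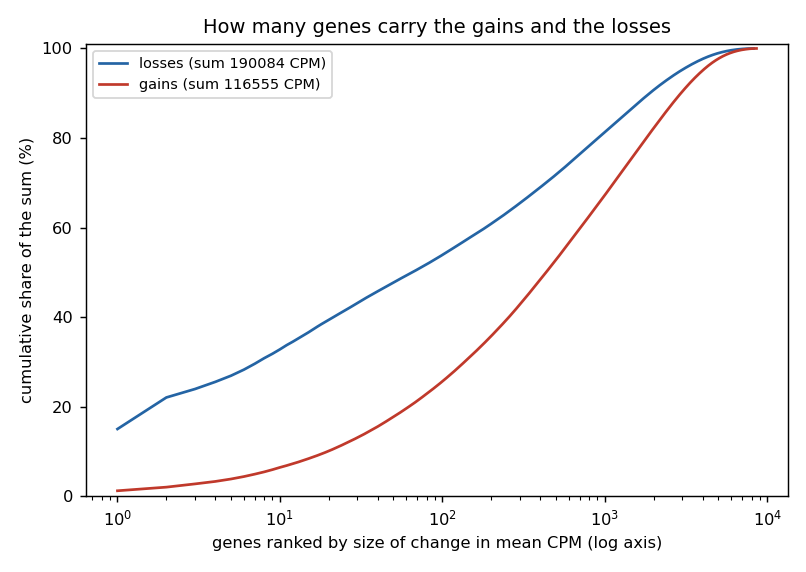
Cumulative share (%) of all losses (blue) and of all gains (red) in mean CPM against the rank of the gene by the size of its change (log axis). The 10 largest losses reach 32.8% of the total loss and the 10 largest gains 6.41% of the total gain.

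Several abundant secretory and housekeeping transcripts held their level within narrow bounds while insulin fell. Cpe, the carboxypeptidase that trims prohormones, had 5267, 5257 and 5660.1 CPM in DMSO and 4889, 4896 and 5072 CPM with FoxOi, and its change of -0.12 ± 0.08 had an interval of -0.29 to 0.04. Scg2, secretogranin 2, was at 0.07 ± 0.09 (-0.13 to 0.26) and G6pc2, the islet glucose-6-phosphatase, at 0.03 ± 0.09 (-0.16 to 0.23). Psap, the saposin precursor, was at 0.07 ± 0.09 (-0.13 to 0.27), Tubb5, a tubulin, at 0.08 ± 0.09 (-0.12 to 0.27) and Hspa8, a chaperone, at -0.11 ± 0.09 (-0.29 to 0.08). Hspa5, the ER chaperone BiP, was at -0.17 ± 0.09 (-0.37 to 0.03) and Prkar1a, a regulatory subunit of protein kinase A, at -0.20 ± 0.08 (-0.36 to -0.03). Those 2 genes were called in the blocked fit (adjusted p = 0.0453 and 0.00507), and Prkar1a also without DMSO replicate 1 (adjusted p = 0.019) and in DESeq2 (0.0132). So FoxOi did not lower all granule genes alike: Ins2, Chga and Pcsk2 fell beyond 1.5-fold, Cpe and Scg2 were bounded within 1.3-fold, and Vgf, a granule peptide precursor, rose by 0.57 ± 0.08. In the whole list of prohormone processing and granule proteins 14 of 21 fell and 1 rose (2 in the blocked fit), with a median of -0.70.

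On the gaining side, Sqstm1, the autophagy receptor p62 (ENSMUSG00000015837, chromosome 11, 50199366 to 50210827), had 836, 654 and 642 CPM in DMSO and 2235, 2216 and 1847 CPM with FoxOi, the largest gain of any gene. All FoxOi libraries were above all DMSO libraries, and Sqstm1 rose by 1.56 ± 0.13 (log2, SE; adjusted p = 4.65e-07); its exons overlap those of Mrnip on the opposite strand. Slc38a4, a neutral amino acid transporter, went from 366 ± 34.5 to 1003 ± 50.2 CPM, and Hspa9, the mitochondrial chaperone mortalin, from 423 ± 7.41 to 1049.6 ± 40.8 CPM. Ctsb, cathepsin B, rose by 1.00 ± 0.11, and Mt1, a metallothionein, by 0.57 ± 0.13. The elongation factor genes Eef1a1 (0.49 ± 0.11) and Eef2 (0.35 ± 0.08) also rose, by less than 1.5-fold; Eef1a1 has many processed copies that can share its reads.

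Transcription factors of the islet fell broadly and to different depths. Of 22 listed 20 were tested, 15 fell and 0 rose, against 20.3% of all genes lower, and 9 fell beyond 1.5-fold; the list median was -0.84. Nkx2-2, a homeobox factor of beta cell identity, had 139, 139.6 and 137 CPM in DMSO and 33.4, 31.4 and 27.5 CPM with FoxOi. Both groups were tight and the fall was 2.17 ± 0.10. Mnx1, another homeobox factor, fell by 1.84 ± 0.13, Myt1, a zinc finger factor, by 1.28 ± 0.09, Rfx6, a factor of endocrine development, by 1.18 ± 0.09, and Hnf4a, a gene of monogenic diabetes, by 1.13 ± 0.12. Neurod1, an insulin gene activator, fell by only 0.43 ± 0.08 and Foxa2, a forkhead pioneer factor, by 0.74 ± 0.09. Insm1, a factor shared by endocrine and neuroendocrine cells, was at 0.11 ± 0.12 with all 3 FoxOi libraries (296, 330.0 and 234 CPM) within or near the DMSO range (276, 277 and 245 CPM).

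Receptors of the beta cell surface fell more often than they rose. Of 24 receptor genes 20 were tested, 12 fell and 4 rose (2 without DMSO replicate 2 or without FoxOi replicate 1), with a median of -0.86. Ffar1, the long-chain fatty acid receptor, had 435, 434 and 433 CPM in DMSO and 84.7, 80.3 and 70.7 CPM with FoxOi. The DMSO libraries agreed closely, and every FoxOi library was far lower. Its neighbours on chromosome 7, the short-chain fatty acid receptor genes Ffar3 and Ffar2, fell by 2.69 ± 0.21 and 2.12 ± 0.34. The incretin receptor genes Gipr and Glp1r fell by 1.71 ± 0.13 and 0.95 ± 0.08, the somatostatin receptor gene Sstr3 by 1.48 ± 0.12 and the adrenergic receptor gene Adra2a by 0.81 ± 0.15, so receptors that stimulate and receptors that restrain secretion were both among the fallers. Sstr2 rose from 0.698 ± 0.191 to 1.89 ± 0.408 CPM. Of the exocytosis machinery 11 of 23 tested genes fell and 4 rose (10 rose in the blocked fit), with a median of 0.08 that became -0.04 without DMSO replicate 3. Fallers included the vesicle protein Syt13 (-1.29 ± 0.08), complexin 2 (Cplx2, -1.42 ± 0.09) and the Rab effector gene Rph3al (-1.44 ± 0.16). Syt4 (0.92 ± 0.16), the SNARE gene Stx1a (0.70 ± 0.09) and the low-level complexin gene Cplx1 (1.27 ± 0.24) rose. Rab27a, a vesicle protein from the list of prohormone processing and granule proteins, fell by 1.54 ± 0.09.

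Peptide and amine messengers other than insulin split. Of 15 tested genes of this list 7 fell and 2 rose, with a median of -0.37; only 1 rose when DMSO replicate 1 or 3 or FoxOi replicate 1 was left out. Sct, secretin, had 273, 323 and 454 CPM in DMSO and 105, 107 and 119 CPM with FoxOi. FoxOi libraries agreed closely while DMSO libraries spread, with no overlap, and Sct fell by 1.67 ± 0.20. Gast, gastrin, fell by 1.86 ± 0.40, Tph1, of serotonin synthesis, by 1.19 ± 0.20, and Cck, cholecystokinin, by 0.37 ± 0.11 from 5491 ± 267 CPM. Npy was at -0.70 ± 0.21 (adjusted p = 0.0168). Leaving out DMSO replicate 1 (0.0666), DMSO replicate 2 (0.0544) or FoxOi replicate 3 (0.0658) ended that call. Nts, neurotensin, had 3 counts over the DMSO libraries and 234 with FoxOi, a ratio of 64.4 (95% counting interval 21.8 to 314). Sst, somatostatin, was at 1.00 ± 0.43 (adjusted p = 0.0841), with FoxOi libraries at 142, 51.3 and 122 CPM overlapping DMSO libraries at 75.1, 36.3 and 45.8 CPM; it was called higher without FoxOi replicate 2 (adjusted p = 0.0192) and in the blocked fit (0.00422). Of 6 tested progenitor markers 3 rose and 1 fell, which was Gast, given above. Sox11 rose from 0.561 ± 0.222 to 5.22 ± 1.51 CPM and Hes1 from 11.1 ± 1.48 to 18.7 ± 1.69 CPM, Myc also rose, Sox9 had 2 and 7 counts over the groups, and Nanog and Sox2 had 0.

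The largest rises included several genes for secreted and surface proteins. Areg, the EGF receptor ligand amphiregulin (ENSMUSG00000029378, chromosome 5, 91139599 to 91148432), had 0.384, 0.249 and 0.587 CPM in DMSO and 122, 168 and 117.95 CPM with FoxOi. It passed from trace level to more than 100 CPM in every FoxOi library, a rise of 8.39 ± 0.21 (log2, SE; adjusted p = 6.81e-12). Spp1, osteopontin (ENSMUSG00000029304, chromosome 5, 104435118 to 104441050), had 6.14, 7.78 and 5.72 CPM and 182, 235 and 189 CPM and rose by 4.94 ± 0.15 (adjusted p = 3.14e-11). Gpnmb, a glycoprotein of lysosomes and the cell surface, had 1 count over the 3 DMSO libraries and 1214 with FoxOi, a ratio of 1000 whose 95% counting interval runs from 179 to 39600. Pla2g2e, a secreted phospholipase, had 0 and 665 counts, at least 183-fold higher when DMSO is set to a floor of 3 counts over the group. Lgals3, galectin 3, rose from 0.133 ± 0.012 to 12.5 ± 1.72 CPM, Car6, a secreted carbonic anhydrase, from 0.504 ± 0.344 to 23.6 ± 5.09 CPM, and Ptgs2, the prostaglandin synthase COX-2, from 0.899 ± 0.33 to 19.2 ± 4.24 CPM. Stmn4, of the microtubule-regulating stathmins, rose by 4.54 ± 0.26, Tpsab1, a tryptase, by 4.39 ± 0.45, and Mamdc2 by 4.24 ± 0.27. Intervals and floors on counts cover counting error only, because reads were not tagged by molecule. Macrophages are also known to express Lgals3, Spp1 and Gpnmb; the levels of the macrophage list are given above, and their part in these rises was not tested.

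Some EGF receptor ligands rose as their receptor fell. Of 15 genes of this family 8 were tested, with 5 higher and 1 lower. Areg, Ereg and Btc were near absent from DMSO libraries and passed the filter on low counts only through other libraries. They could hardly have been called lower, which weighs this count toward rises. Besides Areg, Ereg went from 2 to 152 counts (ratio 62.7, interval 17.1 to 522), Btc, betacellulin, from 2 to 64 counts (26.4, 7.02 to 223), and Hbegf rose by 0.50 ± 0.11. Egfr had 47.7, 51.5 and 49.5 CPM in DMSO and 19.8, 21.6 and 20.5 CPM with FoxOi, a fall of 1.26 ± 0.10, and Errfi1, a feedback inhibitor of the receptor, rose by 0.64 ± 0.12. The genes of ERK response and feedback split: 11 of 20 rose and 7 fell. Spry2, an inhibitor of receptor tyrosine kinase signalling, rose by 2.10 ± 0.20, the early response gene Ier3 by 2.09 ± 0.14 and the phosphatase genes Dusp1 and Dusp4 by 1.32 ± 0.23 and 1.57 ± 0.26. In contrast, the immediate early factor gene Egr1 went from 264, 406 and 287 CPM to 90.2, 112 and 91.4 CPM, a fall of 1.70 ± 0.16, and Dusp6 and Phlda1 fell by 0.85 ± 0.12 and 0.87 ± 0.11.

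AP-1 genes rose almost as a whole: 11 of 12 tested AP-1 and small Maf genes were higher and 0 lower, 8 of them beyond 1.5-fold, with the highest median of all lists (1.34). Jun had 24.4, 25.6 and 21.4 CPM in DMSO and 135, 133 and 161 CPM with FoxOi, a rise of 2.59 ± 0.13 (adjusted p = 4.02e-09). Fosl1 rose from 0.477 ± 0.208 to 11.1 ± 2.85 CPM, Atf3 from 6.60 ± 0.716 to 87.8 ± 19.97 CPM, Fosl2 by 1.44 ± 0.18, Fosb by 1.54 ± 0.17 and the small Maf genes Mafk and Maff by 1.48 ± 0.10 and 1.23 ± 0.12. Fos itself was at 0.21 ± 0.29 (interval -0.42 to 0.84) and was not called. Among NF-kB and cytokine genes 9 of 15 rose and 0 fell. The subunit genes Nfkb1, Rela and Relb rose by 0.71 ± 0.13, 0.67 ± 0.09 and 0.82 ± 0.10, the TWEAK receptor gene Tnfrsf12a by 2.09 ± 0.14, and the low-level genes Cxcl10 and Il1rn by 3.07 ± 0.41 and 4.87 ± 0.54, while the feedback genes Nfkbia (-0.13 ± 0.12) and Tnfaip3 (-0.22 ± 0.16) were not called.

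ATF4 targets, the genes of the integrated stress response, rose: 20 of 25 tested were higher and 1 lower, with a median of 0.98. Nupr1, a stress-induced chromatin protein, had 16.7, 10.64 and 9.02 CPM in DMSO and 135, 115 and 94.8 CPM with FoxOi. The lowest FoxOi library was far above the highest DMSO library, and the change was 3.24 ± 0.23. The amino acid transporter genes Slc7a11 (whose promoter is shown above), Slc7a3 and Slc3a2 rose by 2.29 ± 0.20, 1.82 ± 0.14 and 1.22 ± 0.11, the pseudokinase gene Trib3 by 2.00 ± 0.27, Ddit3, which encodes CHOP, by 1.72 ± 0.26, and the serine synthesis genes Phgdh and Psat1 by 1.08 ± 0.12 and 0.65 ± 0.08. Not every target followed: the proline synthesis gene Pycr1 fell by 0.56 ± 0.09, Aldh18a1 was bounded (-0.09 to 0.24), and Mthfd2 was at 0.14 ± 0.11 (adjusted p = 0.357, and 0.0411 in the blocked fit). Of 20 cytosolic tRNA synthetase genes 15 rose and 1 fell, with a median of 0.45, and Nars, Sars and Eprs rose by 0.85 ± 0.08, 0.84 ± 0.09 and 0.79 ± 0.08. Wars was the one that fell, by 0.37 ± 0.07.

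ER folding genes moved the other way. Of 25 genes for ER chaperones or the unfolded protein response 18 fell and 2 rose, with a median of -0.42. Hyou1, an ER chaperone, had 1333, 1328 and 1429 CPM in DMSO and 689.9, 720.5 and 776 CPM with FoxOi, and Ero1lb, the disulfide oxidase abundant in islets, had 2175, 2680.0 and 3044 CPM and 1246, 1348 and 1377 CPM. Groups did not overlap for either gene. Creld2, Sdf2l1 and Pdia4 fell by 1.16 ± 0.11, 1.11 ± 0.10 and 0.81 ± 0.08, and Xbp1, a factor of this response, by 0.40 ± 0.11. The paralog of Ero1lb that responds to hypoxia, Ero1l, rose by 1.49 ± 0.27, as did Derl1 by 0.61 ± 0.08, while Dnajb9 (0.11 ± 0.09) and Canx (0.06 ± 0.18) were not called. Entry into the ER showed the same sign at a smaller size: of 28 genes of signal peptide recognition and ER translocation 14 fell and 0 rose, 10 were bounded within 1.3-fold, and the median was -0.26. In the blocked fit and without DMSO replicate 3, 1 gene of this list was higher, Stt3b. The signal recognition receptor gene Srpr fell by 0.83 ± 0.08, the channel gene Sec61b by 0.93 ± 0.13 and the signal peptidase gene Spcs2 by 0.65 ± 0.08.

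Lysosomal genes rose: 25 of 34 tested were higher and 0 lower, with a median of 0.50; in the blocked fit 1 was lower, Gusb. Cd63, a tetraspanin of late endosomes, had 216, 195 and 206 CPM in DMSO and 597, 541 and 575 CPM with FoxOi. Neu1, the sialidase gene, had 248, 209 and 215 CPM and 552, 468 and 492 CPM, and both genes had FoxOi libraries well above every DMSO library. Gla, alpha-galactosidase A, rose by 1.40 ± 0.11, Tpp1, a tripeptidyl peptidase, by 1.05 ± 0.11, Grn, progranulin, by 0.96 ± 0.10 and Lamp1 by 0.37 ± 0.08, while Glb1 (-0.21 to 0.24) and Scarb2 (-0.30 to 0.14) gave the intervals shown. Of the vacuolar proton pump family (Atp6v symbols) 9 of 17 rose and 3 fell, with Atp6v1a, chosen after its value was seen, at 0.97 ± 0.16. Among autophagy and MiT/TFE genes 11 of 30 rose and 4 fell (7 fell in the blocked fit). The Rag GTPase genes Rragd and Rragc rose by 1.92 ± 0.12 and 0.89 ± 0.08 and the receptor gene Optn by 1.06 ± 0.09, whereas the initiation gene Atg13 fell by 0.90 ± 0.08 and the receptor gene Nbr1 by 0.61 ± 0.10. The core conjugation genes Atg5 (-0.25 to 0.18), Atg12 (-0.08 to 0.27) and Map1lc3b (-0.19 to 0.26) and the factor gene Tfe3 (-0.22 to 0.17) had intervals around 0.

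Oxidative stress genes rose in part. Of 19 NRF2 targets 9 rose and 1 fell (4 fell in the blocked fit, 2 without DMSO replicate 3, without FoxOi replicate 1, in DESeq2 or in limma with the filter, and 0 without FoxOi replicate 2 or 3). Hmox1, heme oxygenase 1, had 86.2, 76.8 and 64.0 CPM in DMSO and 405, 387 and 400.4 CPM with FoxOi, a rise of 2.39 ± 0.16. Gclc and Txnrd1, of glutathione and thioredoxin metabolism, rose by 0.62 ± 0.10 and 0.68 ± 0.13, while Nqo1, a standard NRF2 reporter gene, was at -0.22 ± 0.09 (adjusted p = 0.0692). That gene was called lower without DMSO replicate 3 (adjusted p = 0.0237) and in the blocked fit (adjusted p = 0.0291). Cytosolic heat shock genes did not move together: Hspa8, Dnajb1 (-0.09 to 0.31) and Bag3 (-0.35 to 0.11) were not called, and the count of 7 higher among 15 was 3 when DMSO replicate 1 or 2 was left out and 4 when FoxOi replicate 3 was. Cryab, a small heat shock protein, had 5 counts over the DMSO libraries and rose to 7.71 ± 2.24 CPM, and the mitochondrial chaperone Hspd1 rose by 0.77 ± 0.08.

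Targets of p53 rose: 15 of 18 tested were higher and 1 lower, with a median of 0.93. Cdkn1a, the CDK inhibitor p21 (ENSMUSG00000023067, chromosome 17, 29090976 to 29100727), had 107, 84.3 and 82.8 CPM in DMSO and 488, 430.0 and 558 CPM with FoxOi, a rise of 2.43 ± 0.13 (adjusted p = 4.38e-09). Trp53inp1 and Phlda3 rose by 2.34 ± 0.27 and 2.34 ± 0.20, Aen, a nuclease gene, by 1.34 ± 0.10, Ccng1 by 1.13 ± 0.17 and Mdm2, the p53 ubiquitin ligase, by 0.59 ± 0.08. Sesn1, a target shared with FoxO, was the one that fell. Of 14 tested BCL2 family genes 9 rose and 2 fell (1 fell without DMSO replicate 1, FoxOi replicate 1, FoxOi replicate 3 or the filter on low counts, and 0 when only the 6 DMSO and FoxOi libraries were fitted). The pro-death genes Bid, Bmf and Bbc3 rose by 1.86 ± 0.14, 1.77 ± 0.28 and 0.81 ± 0.18, and the survival genes Bcl2 (0.05 ± 0.18) and Bcl2l1 (0.16 ± 0.08) were not called. The fallers were the pro-death gene Bik, with 26 counts over the DMSO libraries and 3 with FoxOi (10.5 times lower, 95% counting interval 3.22 to 54.2), and the survival gene Bcl2l2, by 0.21 ± 0.08 (adjusted p = 0.0356). The call of Bcl2l2 was lost without DMSO replicate 1 (0.0638), FoxOi replicate 1 (0.0515) or FoxOi replicate 3 (0.122), without the filter (0.132) and with only the 6 libraries (0.104).

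Within the cell cycle, genes of mitosis and of DNA replication parted. Of 25 mitosis genes 21 fell and 0 rose, with a median of -0.59. Plk1, a mitotic kinase, had 111, 101.1 and 83.3 CPM in DMSO and 49.0, 40.7 and 33.4 CPM with FoxOi, Cdc20, an activator of the anaphase-promoting complex, 163, 142 and 126 CPM and 63.6, 52.9 and 42.2 CPM (its exons overlap those of Elovl1 on the opposite strand). In both genes every FoxOi library was below every DMSO library. Ccnb2 fell by 0.95 ± 0.11, Ccna2 by 0.60 ± 0.11, Top2a by 0.58 ± 0.11 and Mki67 by 0.43 ± 0.11, and 16 of 39 tested kinesin genes fell while 4 rose (2 without DMSO replicate 2 and 7 in the blocked fit). Of 27 DNA replication genes 4 rose, 1 fell and 9 were bounded, with a median of 0.00. Mcm2 (295, 315 and 283 CPM in DMSO, 288, 304 and 282 CPM with FoxOi) had an interval of -0.21 to 0.15 and Pcna one of -0.13 to 0.33, and Pole rose by 0.60 ± 0.12. The faller was Mcm6 (adjusted p = 0.0433), and 0 genes fell without DMSO replicate 2, FoxOi replicate 1 or FoxOi replicate 3, with only the 6 libraries or in limma without the filter. In the blocked fit 7 of these genes rose and 8 fell, without DMSO replicate 1, without the filter or with upper quartile scaling there were 2 that fell and without DMSO replicate 3 there were 4. Of 19 tested G1 cyclins, CDKs and CDK inhibitors 3 rose and 6 fell (5 and 8 in the blocked fit, 5 and 7 without the filter). Beside the rise of Cdkn1a, the CDK inhibitor genes Cdkn2c and Cdkn2d fell by 0.98 ± 0.08 and 0.82 ± 0.10 and Rbl2, a retinoblastoma relative, by 0.96 ± 0.13, while Cdk4 was at 0.07 ± 0.12 (interval -0.19 to 0.32).

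Glucose metabolism genes changed in opposite directions along the pathway. Of 20 glycolysis and lactate genes 16 rose and 2 fell, with a median of 0.75, against 5 higher and 3 lower of 23 pyruvate dehydrogenase and TCA cycle genes, of which 12 were bounded within 1.3-fold (5 were lower in the blocked fit). Of 14 genes of glucose sensing and the KATP channel 1 rose and 8 fell. At the entry step the glucose transporter gene Slc2a1 had 25.1, 22.4 and 21.3 CPM in DMSO and 71.7, 70.0 and 66.4 CPM with FoxOi, a rise of 1.596 ± 0.11, and the hexokinase gene Hk1 rose by 0.41 ± 0.09. At phosphofructokinase Pfkp rose by 1.08 ± 0.08 and Pfkl and Pfkm fell by 0.50 ± 0.10 and 0.51 ± 0.07. Tpi1, Pgk1 and Eno1 rose by 0.69 ± 0.09, 0.82 ± 0.07 and 0.94 ± 0.09, and the abundant pyruvate kinase gene Pkm was at 0.13 ± 0.08 (interval -0.03 to 0.29). Gapdh stood at only 5.09 ± 0.409 CPM in DMSO, and since reads of this gene can be shared with its many processed copies its value is uncertain.

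At the end of glycolysis Ldha, lactate dehydrogenase A, had 1.28, 1.31 and 1.32 CPM in DMSO and 21.1, 18.9 and 28.7 CPM with FoxOi, Ldhb 6.58, 5.10 and 5.80 CPM and 19.7, 18.6 and 20.2 CPM, and the lactate transporter gene Slc16a1 18.9, 19.7 and 27.9 CPM and 76.5, 85.1 and 105 CPM. None of these 3 genes had overlapping groups, and Ldha, which primary beta cells are known to keep very low, rose by 4.13 ± 0.27 (adjusted p = 3.45e-08). Among genes by which beta cells are known to pass glucose carbon and electrons to mitochondria, Pcx and Gpd2 fell. Pcx, pyruvate carboxylase, went from 197, 190.1 and 184 CPM to 83.2, 77.6 and 83.2 CPM (-1.22 ± 0.08). Gpd2, the mitochondrial glycerol phosphate dehydrogenase, went from 209, 292 and 304 CPM to 89.3, 104 and 98.6 CPM (-1.46 ± 0.14). An antisense transcript overlaps the exons of Gpd2. Slc25a12, of the same glucose sensing list, fell by only 0.21 ± 0.07, and 1 gene of that list rose. Pdha1, of pyruvate dehydrogenase, rose by 0.63 ± 0.08 and Cs, citrate synthase, by 0.45 ± 0.07, while Fh1, fumarase, fell by 0.94 ± 0.13. The channel genes downstream fell too, Kcnj11 by 1.13 ± 0.08 and Abcc8 by 0.71 ± 0.08.

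**Figure D4:**
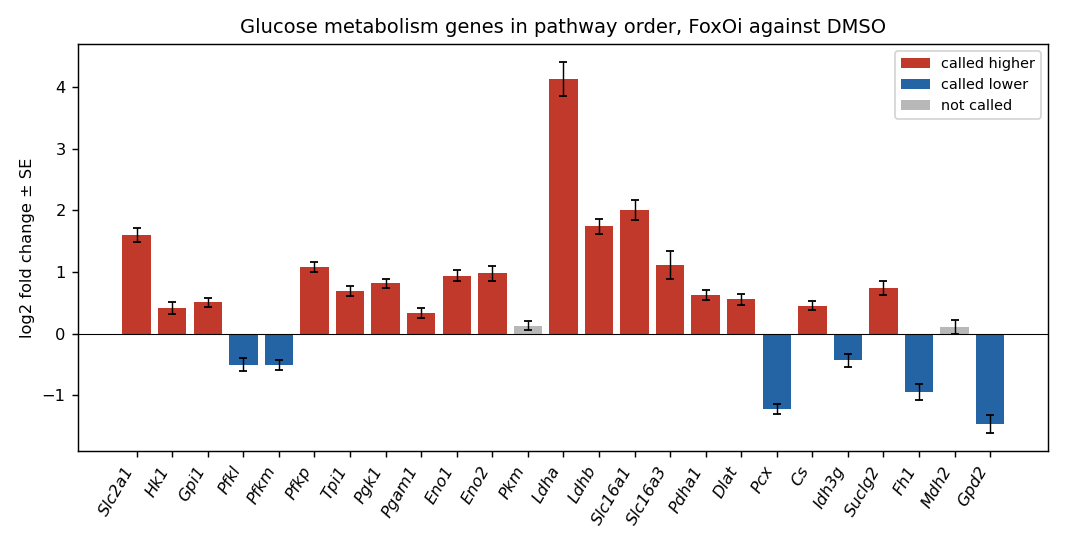
Log2 fold change with FoxOi for 25 genes from the lists of glucose sensing, glycolysis and TCA cycle, in pathway order from uptake to mitochondria; bars are fitted changes, whiskers the SE, red called higher, blue called lower, grey not called. Ldha and Slc16a1 show the largest rises and Gpd2 and Pcx the largest falls; genes shown were picked from the lists with their values known.

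Lipid genes were mixed. Of 17 fatty acid oxidation genes 3 rose and 6 fell: Hadh, a dehydrogenase known for restraining insulin secretion, had 214, 231 and 195 CPM in DMSO and 82.0, 79.9 and 70.2 CPM with FoxOi, and Cpt2 and Acadvl fell by 0.95 ± 0.11 and 0.68 ± 0.08, but Cpt1a, the entry enzyme, rose by 0.83 ± 0.13. Acly, ATP citrate lyase, among the most abundant enzyme transcripts here, had 3416, 3927 and 3978 CPM and 1901, 1944 and 2102 CPM and fell by 0.93 ± 0.09, as did Srebf1 by 0.64 ± 0.11, whereas Fasn rose by 0.65 ± 0.09. In the list of fatty acid synthesis and desaturation 7 of 14 genes rose (4 without DMSO replicate 2) and 3 fell. Of 24 genes of cholesterol synthesis and uptake 12 rose and 1 fell (4 fell in the blocked fit, 2 without DMSO replicate 3). Cyp51, Msmo1 and Sqle rose by 1.14 ± 0.12, 1.197 ± 0.11 and 0.75 ± 0.10, and the exporter gene Abca1 fell by 1.78 ± 0.16.

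Genes that build ribosomes rose: 19 of 23 ribosome biogenesis genes were higher and 0 lower, with a median of 0.57 and 2 of them beyond 1.5-fold. Ncl, nucleolin, had 533, 524 and 502 CPM in DMSO and 959, 943 and 846 CPM with FoxOi, Nop2 and Utp20 rose by 0.81 ± 0.11 and 0.86 ± 0.13, and Myc rose by 0.90 ± 0.18. Of 76 ribosomal protein genes 32 rose and 0 fell, 0 beyond 1.5-fold in either direction, with a median of 0.29; these genes have many processed copies. This count rested on single libraries: it was 51 without DMSO replicate 1, 13 without DMSO replicate 2, 11 without DMSO replicate 3, 10 without FoxOi replicate 1 and 61 in the blocked fit. Of 48 proteasome genes (Psm symbols) 26 were bounded within 1.3-fold.

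Actin-linked genes rose, with 12 of 20 higher and 0 lower. S100a10 had 59.1, 55.4 and 47.8 CPM in DMSO and 214, 231 and 194 CPM with FoxOi, and its partner Anxa2, annexin A2, rose by 2.39 ± 0.22, Zyx, zyxin, by 1.24 ± 0.13, Tpm1, a tropomyosin, by 1.07 ± 0.08 and Flna by 0.84 ± 0.15, while Actb was bounded (-0.09 to 0.29). The cadherin genes changed in opposite directions: Cdh1, E-cadherin, went from 89.7, 89.9 and 79.3 CPM to 34.3, 35.1 and 33.7 CPM and Cdh2, N-cadherin, from 102, 107 and 141 CPM to 158, 179.5 and 226 CPM. Cdh1 fell by 1.33 ± 0.10 and Cdh2 rose by 0.69 ± 0.15. The tight junction gene Cldn4 had 1 count in DMSO and 195 with FoxOi (ratio 161, 95% counting interval 28.5 to 6390). Of 16 junction and keratin genes 8 rose and 3 fell (5 in the blocked fit). Of the mesenchymal markers Vim had 1 and 10 counts and Acta2 0 and 2.

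Clock genes changed in both directions. Of 18 tested 9 rose and 2 fell (4 fell in the blocked fit or without FoxOi replicate 3). Bhlhe40, a repressor that binds E-boxes (ENSMUSG00000030103, chromosome 6, 108660629 to 108666925), had 5.05, 5.48 and 6.24 CPM in DMSO and 49.9, 48.5 and 59.3 CPM with FoxOi. It rose by 3.24 ± 0.12, with one of the smallest adjusted p of all genes (2.8e-10). Bhlhe41 rose by 1.19 ± 0.08, Ciart by 2.00 ± 0.29, Nfil3 by 1.76 ± 0.26, Per1 by 0.77 ± 0.12 and Cry1, whose promoter is shown above, by 0.88 ± 0.11, while the output genes Dbp and Per3 fell by 0.70 ± 0.13 and 0.91 ± 0.17 and the activators Arntl (-0.15 ± 0.17) and Clock (-0.15 ± 0.26) were not called. Developmental pathways had changes in both directions. Of 11 Wnt genes 3 rose and 4 fell (2 fell without FoxOi replicate 1 or 2, and 5 rose in the blocked fit), of 16 Notch genes 4 rose and 5 fell (2 rose without DMSO replicate 1), and of 16 TGF-beta and BMP genes 7 rose and 5 fell (3 fell without FoxOi replicate 2). Wnt4, a Wnt ligand of beta cells, had 109, 104 and 76.2 CPM in DMSO and 12.5, 11.6 and 10.61 CPM with FoxOi and fell by 3.06 ± 0.21; Lfng and Notch1 fell by 1.90 ± 0.22 and 1.32 ± 0.15 and the Notch ligand gene Jag1 rose by 2.52 ± 0.23. Inhba, an activin subunit, rose by 2.55 ± 0.27, Tgfb1 by 0.96 ± 0.10, and the YAP paralog gene Wwtr1 from 0.276 ± 0.208 to 4.17 ± 0.419 CPM.

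Interferon and hypoxia lists moved only in part. Of 22 interferon and MHC class I genes 7 rose and 3 fell (5 in the blocked fit): B2m rose by 1.304 ± 0.11 and Rsad2 by 2.03 ± 0.24, Irf7 fell by 1.15 ± 0.21 and Ifit2 was at -0.10 ± 0.17. Of 14 hypoxia genes 6 rose and 2 fell: Adm, adrenomedullin, rose from 0.928 ± 0.362 to 13.3 ± 3.22 CPM, while Vegfa was at -0.09 ± 0.10 with an interval of -0.31 to 0.13 and Bnip3l fell by 0.74 ± 0.16. Of 16 cAMP and CREB targets 5 rose and 5 fell, and of 17 metallothioneins and zinc transporters 6 rose and 2 fell (4 fell without the filter, 5 in the blocked fit). The interferon list had 45.5% of its tested genes called and the metallothionein and zinc transporter list 47.1%, near the 40.9% of all tested genes. No gene was called in the other direction among islet transcription factors (higher), AP-1, NF-kB, YAP, lysosomal, ribosome biogenesis, ribosomal protein and actin genes (lower), and ER translocation and mitosis genes (higher). DESeq2 and limma also called 0 there, and at an unadjusted p of 0.05 edgeR found 1, Foxa1 (0.49 ± 0.20, adjusted p = 0.0667, and 0.0492 in the blocked fit). The blocked fit called Foxa1, Stt3b and Gusb in the other direction, and the fit without DMSO replicate 3 called Stt3b. Of 7 tested YAP and TEAD genes only 2 were called, both higher (28.6%, below the 40.9% of all tested genes). The median of that list was 0.08, and -0.04 without DMSO replicate 1. With so few calls, the absence of lower YAP genes says little.

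**Figure D5:**
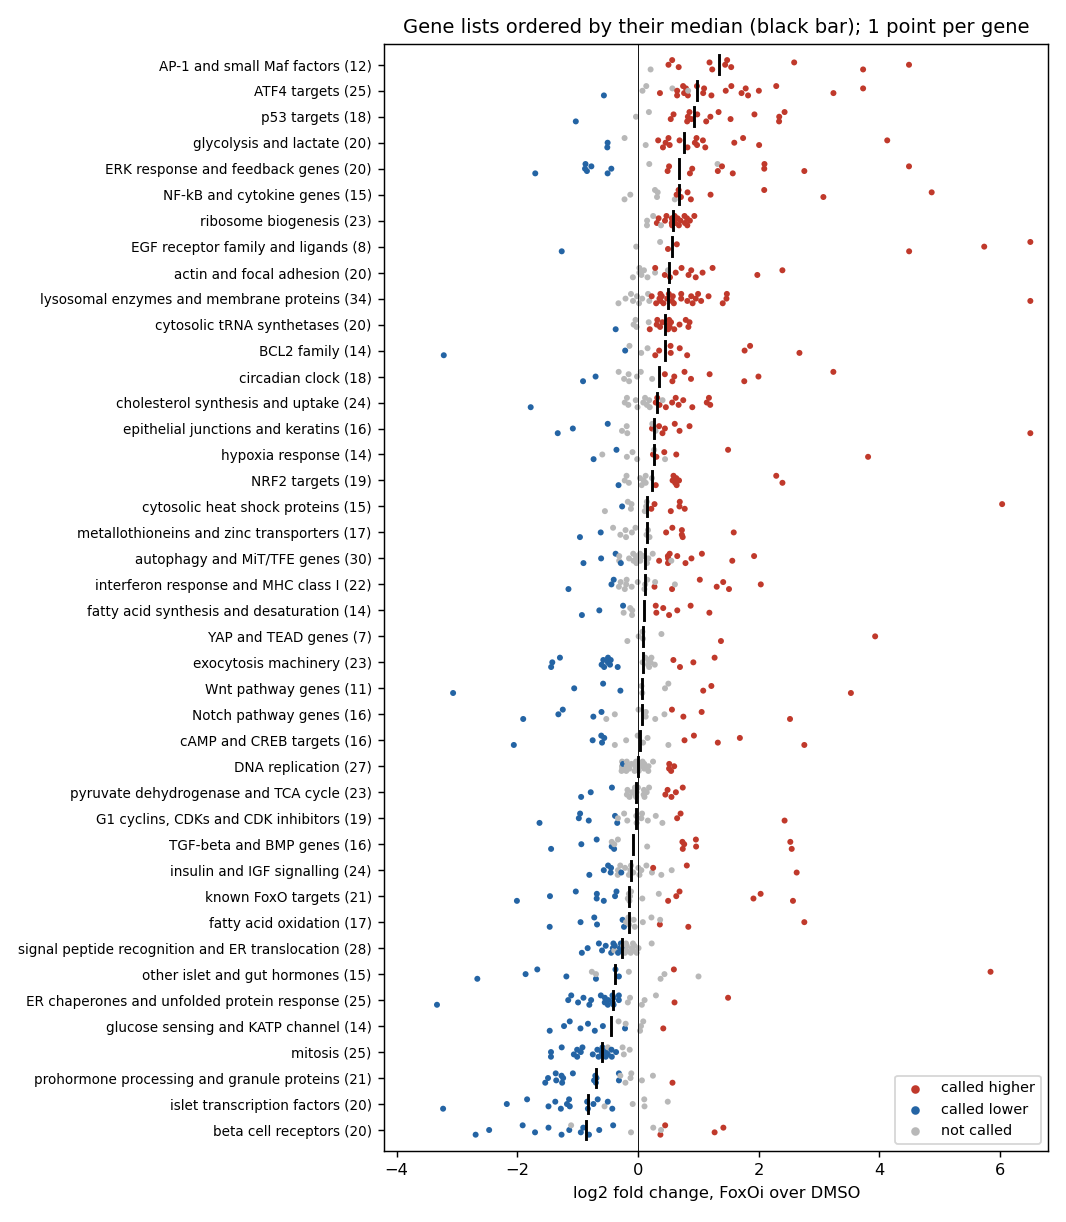
Log2 fold change with FoxOi of each tested member (1 point per gene) of 42 gene lists with at least 7 tested genes (cell type marker lists are not plotted), ordered by the list median (black bar); number of genes in brackets, red called higher, blue called lower, grey not called, values beyond -4 or 6.5 drawn at those limits. Medians run from 1.34 (AP-1 and small Maf factors) to -0.86 (beta cell receptors); the median of all genes is 0.01.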

How the data were processed

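Stranded mRNA libraries were sequenced as single reads of 50 bases, per the labels' protocols. The authors deposited raw counts per gene (55487 genes) and FPKM values, which scale counts by depth and gene length. Per the submitters' processing notes, the GRCm38/mm10 build, STAR (2.7.5a), DESeq2 and Picard (2.19.2) were used. Which tool counted reads, and by which strand setting, is not given in the sources used here. Exons of 168 of the 997 genes of the lists, families and naming rules overlap those of another tested gene, for 154 on the opposite strand. Not all are marked where named: Mlxipl, Pcsk2, Ddit3, Fosl1, Notch1, Irs2, Slc6a9 and Slc43a2 are among the unmarked. All 12 libraries of deposited counts were fitted by group with edgeR 4.0.16 (R 4.3.3) in its robust quasi-likelihood test with TMM scaling, after filterByExpr (minimum count 10, minimum total 15), which left 16808 genes; SE is the log2 fold change divided by the root of F. Fitting all 12 libraries shares 1 estimate of the spread among groups. P-values were adjusted over all tested genes by Benjamini-Hochberg. CPM use TMM-scaled library sizes. Changes beyond 1.5-fold were tested with glmTreat. The deposited FPKM were used for levels between genes and in limma 3.58.1. With 14358011 to 19499216 counts per library, the median half-width of the 95% intervals was 0.30 on the log2 scale. In simulated counts for this comparison (16236 genes), a planted 1.5-fold change was called in 30 of 66 genes. A planted 2-fold change was called in 54 of 63 genes and a 4-fold one in 61 of 65. Calls also fell on 11 of 16042 unchanged genes. Far fewer genes were changed there than were called in the data, so the adjusted p was stricter there. These rates therefore do not carry over directly to the data.

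The label codes give each library a number shared across groups, without saying what it stands for. Deviations of same-numbered DMSO and FoxOi libraries correlated at 0.48, 0.12 and 0.40. As the labels do not say what the number stands for, the main fit used the group only. A fit with the number as a block was an alternative, beside other scalings, filters, tools and leaving out each library. Genes are named by rule: the largest rises and falls among called genes of at least 10 CPM whose groups do not overlap, the largest gains and losses in CPM, abundant genes bounded within 1.3-fold, and members of the gene lists. The comparison, the lists and the families were chosen with earlier results of these data known. A count of 3 over a group was the floor for folds against 0. Some genes of the lists are not reported here by name.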

Additional observations from a re-analysis of the deposited data

How the results depend on the processing

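The count of called genes was 5617 (without DMSO replicate 2) to 6732 when 1 library was left out, 6845 in DESeq2, 6022 to 6650 in limma on log2(FPKM + pseudocount) and 9428 with the replicate number as a block, which shared 6880 of the 6881 called genes. With that block the genes bounded within 1.3-fold rose from 2911 to 4563. The count of genes called and at least 2-fold changed was 1860 in edgeR, but 743 in limma on log2(FPKM + 1) with the low-value filter and 748 without it, where the pseudocount shrinks the change of low genes. Genes changed beyond 1.5-fold, 1840 in edgeR, numbered 1561 to 1801 when 1 library was left out, 1238 in DESeq2 and 2372 with the block. Of the called genes 46.0 to 51.8% were higher over all fits. Among 997 genes of the lists, families and naming rules the block gave 125 further calls and lost none, leaving out DMSO replicate 2 lost 64 calls, and no called gene changed sign; for genes named above, calls that changed are given beside them, and the block changed no other. Genes with few counts, the unstated culture origin and the 3 libraries per group limit what these fits can show.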

Other observations

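Several RNA classes other than coding mRNA did not follow the even split of coding genes, of which 2956 rose and 2947 fell among 12907 tested. Of 336 transcripts annotated as antisense 25 rose and 99 fell, with a median of -0.40 on the log2 scale, of 350 lincRNAs 44 rose and 90 fell (-0.29), and of 85 transcripts from bidirectional promoters 2 rose and 23 fell (-0.38). Leaving out single libraries gave 69 to 105 lower antisense transcripts and 17 to 22 higher ones, and 71 to 93 lower lincRNAs. Meg3, an imprinted lincRNA that is known to be abundant in beta cells, fell from 55.01 ± 9.38 to 8.92 ± 1.69 CPM (SD, n = 3), a change of -2.63 ± 0.17 (edgeR adjusted p = 2.56e-08), and Igf2os, antisense to Igf2, fell from 467 ± 69.6 to 209 ± 45.9 CPM; both were chosen after their values were seen. Whether reads were counted by strand is not given in the sources used here, so reads of an antisense transcript and its partner may be mixed. Processed pseudogenes moved the other way, with 358 of 2258 higher and 115 lower (median 0.18). That count of higher pseudogenes was 206 without DMSO replicate 2, 232 without DMSO replicate 3, 227 without FoxOi replicate 1 and 624 with the replicate number as a block, and reads of these copies can come from their parent genes.

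Gene families taken by their symbols also contained large single changes, and the genes named here were chosen after their values were seen. Of 231 solute carrier genes (Slc) 79 rose and 57 fell: the glycine transporter gene Slc6a9 rose from 20.9 ± 1.75 to 82.9 ± 5.31 CPM, the phosphate transporter gene Slc20a1 from 62.0 ± 2.51 to 171 ± 1.81 CPM, and the amino acid transporter gene Slc43a2 fell from 256 ± 10.05 to 101.3 ± 5.95 CPM. Of 48 potassium channel genes (Kcn) 12 rose and 15 fell, among them Kcnk9 (-1.54 ± 0.10) and Kcnh6 (-2.33 ± 0.21). Of 10 matrix metalloprotease genes (Mmp) 6 rose and 0 fell in edgeR (0 also at an unadjusted p of 0.05, in DESeq2 and in limma). Of the risers, Mmp10, Mmp12, Mmp13 and Mmp28 were near absent from DMSO libraries and passed the filter on low counts only through other libraries. They could hardly have been called lower, so the count of 0 that fell says little. Mmp10 had 0 counts over the DMSO libraries and 331 with FoxOi, at least 91-fold higher when DMSO is set to 3 counts over the group, and Mmp13 had 2 and 272 counts, a ratio of 112 (95% counting interval 30.8 to 931). Of 13 Krüppel-like factor genes (Klf) 8 rose and 0 fell (5 rose without DMSO replicate 2, and 1 fell with the replicate number as a block), with Klf9 at 1.43 ± 0.12 and Klf4 at 1.18 ± 0.13. The guidance cue gene Sema6a went from 8.05 ± 1.44 to 103 ± 4.34 CPM, and the kinase phosphatase gene Dusp16 from 2.33 ± 0.29 to 23.7 ± 5.09 CPM. In the collagens 8 of 26 genes rose and 9 fell (5 and 6 without DMSO replicate 1, 5 rose without FoxOi replicate 3, and 5 fell without FoxOi replicate 2). Col6a6 fell from 110.4 ± 8.56 to 17.2 ± 0.671 CPM, and the tight junction gene Cldn11 from 52.0 ± 5.23 to 6.33 ± 1.85 CPM.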
